A study of Danio rerio with 170 samples.

Results

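The genes described here are 10 zebrafish genes of the integrated stress response, taken by symbol: the transcription factors atf4a, atf4b, ATF3 and DDIT3, the targets asns, chac1 and trib3, and the growth brakes sesn2, ddit4 and eif4ebp3l. Symbols in capitals are the names that the deposited gene annotation took from the human counterpart. Of the 10 genes, 9 were among the 21928 genes tested at 48 hours post fertilization (hpf), and all 10 were among the 24853 genes tested in a separate time course. The remaining gene, chac1, had no count in any of the 70 libraries of the 48 hpf table.

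In the integrated stress response, kinases that sense amino acid shortage, unfolded protein in the endoplasmic reticulum (ER), double-stranded RNA or mitochondrial and heme stress phosphorylate the translation factor eIF2. General translation then falls while the mRNA of ATF4 is translated more, and ATF4 turns on genes for amino acid synthesis and uptake, for further transcription factors such as DDIT3 (CHOP) and ATF3, and for proteins that hold back mTORC1 and end the response. Zebrafish carry a pair of ATF4 genes, atf4a and atf4b. RNA levels as measured here report the transcripts of these genes, not the phosphorylation of eIF2 or the amount of ATF4 protein.

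The study exposed zebrafish embryos of the Tropical 5D wild-type strain from 6 hpf to per- and polyfluoroalkyl substances (PFAS) in sealed plates, with 1% DMSO in every well including the controls. For 15 PFAS, pools of 10 whole embryos were collected at 48 hpf, 4 pools for each PFAS, beside 6 pools of Control Round 1 and 4 pools of Control Round 2. PFAS 2, 4, 14 and 15 belonged to the second round and the other PFAS to the first. A second experiment followed Nafion byproduct 2 (NB2, the compound of PFAS 2) at 73 µM and its control at 48, 72 and 96 hpf in pools of 8 whole embryos.

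Exposures differed in dose, since the study aimed them at a similar incidence of malformation or death later in development. PFAS 12, at the highest dose allowed, fell short of that incidence, and PFAS 14 and 15, which killed embryos early, were given below the dose that causes malformation, so calls are not compared at equal effect. The exposures were PFAS 1 (9-Chloro-perfluorononanoic acid, 100 µM), PFAS 2 (NB2, a polyfluorinated ether sulfonic acid, 30 µM), PFAS 3 (Potassium perfluorooctanesulfonate, 13.8 µM), PFAS 4 (Perfluoro-3,6,9-trioxatridecanoic acid, 50 µM) and PFAS 5 (Perfluoroheptanesulfonic acid, 100 µM). PFAS 6 was N-Ethylperfluorooctanesulfonamide at 100 µM, PFAS 7 was 1-(Perfluorofluorooctyl)propane-2,3-diol at 39.7 µM, PFAS 8 was 1H,1H,11H,11H-Perfluorotetraethylene glycol at 53 µM and PFAS 9 was 2,2,3,3-Tetrafluoropropyl acrylate at 62 µM. PFAS 10 was Perfluorooctanesulfonamide at 8 µM, PFAS 11 was Perfluorohexanesulfonamide at 28 µM, PFAS 12 was 3H-Perfluoro-2,2,4,4-tetrahydroxypentane at 100 µM and PFAS 13 was a fluorinated decane diol with a hydroxyl group at each end at 25 µM. PFAS 14 and PFAS 15, both at 20 µM, were diacrylates, of a fluorinated pentanediol and of a fluorinated hexanediol.

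The 48 hpf libraries held between 14265378 and 30363275 counts, with a median of 23474909. Levels are given as CPM, counts scaled to a library of fixed size, and a gene is called changed where the adjusted p of edgeR's quasi-likelihood test, with Benjamini-Hochberg adjustment over all genes tested, was under 0.05. One library of PFAS 5 was left out, as the study had done, so that group has 3. Pools are the replicates, and the authors chose them by later malformation incidence, RNA quality and day of collection, so p-values rest on the spread between chosen pools. The choice by day applied to the first round, which spanned several days. All second-round pools came from 1 collection day and hold no variation between days. All groups were fitted in 1 model, so the spread between pools is pooled over the groups. Standard errors and p-values therefore do not reflect the scatter of a single exposure alone. All first-round exposures share the Control Round 1 pools, and their values are therefore not independent of each other. Every library holds all tissues of the embryo, so fewer cells of a type and less RNA per cell cannot be told apart.

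After PFAS 10, 8 of the 9 measured genes were called and all 8 rose, where 7.26% of all genes tested rose. After PFAS 11, 7 of the 9 rose against a background of 6.58%, and after PFAS 13, 7 of the 9 rose against 7.63%. PFAS 7 raised 2 genes, ATF3 and DDIT3, against a background of 0.762%. PFAS 6, PFAS 8 and PFAS 9 each raised ATF3 alone, against 0.105%, 2.1% and 3.06%, and PFAS 12 raised eif4ebp3l alone, against 6.77%. The count of 1 after PFAS 12 is near that share. In either direction, 3.84% and 6.9% of all genes were called after PFAS 8 and PFAS 9. No measured gene fell in any of the 15 exposures. Up to 8.52% of all genes fell, the share after PFAS 13, and 3.84% fell after PFAS 9. A count of 0 among 9 genes is near these shares.

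The median log2 fold change of the 9 genes was 1.23 after PFAS 10, 0.83 after PFAS 13 and 0.70 after PFAS 11, beside medians over all genes of -0.02, -0.02 and -0.01. It was 0.17 after PFAS 7 and -0.05 after PFAS 12, both beside a median over all genes of -0.01. Every exposed library lay above every control library for 8 of the 9 genes after PFAS 10, for 7 after PFAS 11 and for 7 after PFAS 13, where 5.67%, 5.56% and 6.08% of all genes were separated in this way. The same held for 3 genes after PFAS 7 and 2 after PFAS 12, with backgrounds of 1.65% and 5.16%. It held for 1 gene each after PFAS 1, 3, 6 and 8, with backgrounds of 0.625%, 0.538%, 0.775% and 2.6%. That gene was ATF3 after PFAS 1, 3 and 8. After PFAS 6 it was trib3, at 9.26 to 10.5 CPM against a control maximum of 8.91 CPM, which was not called.

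**Figure D1:**
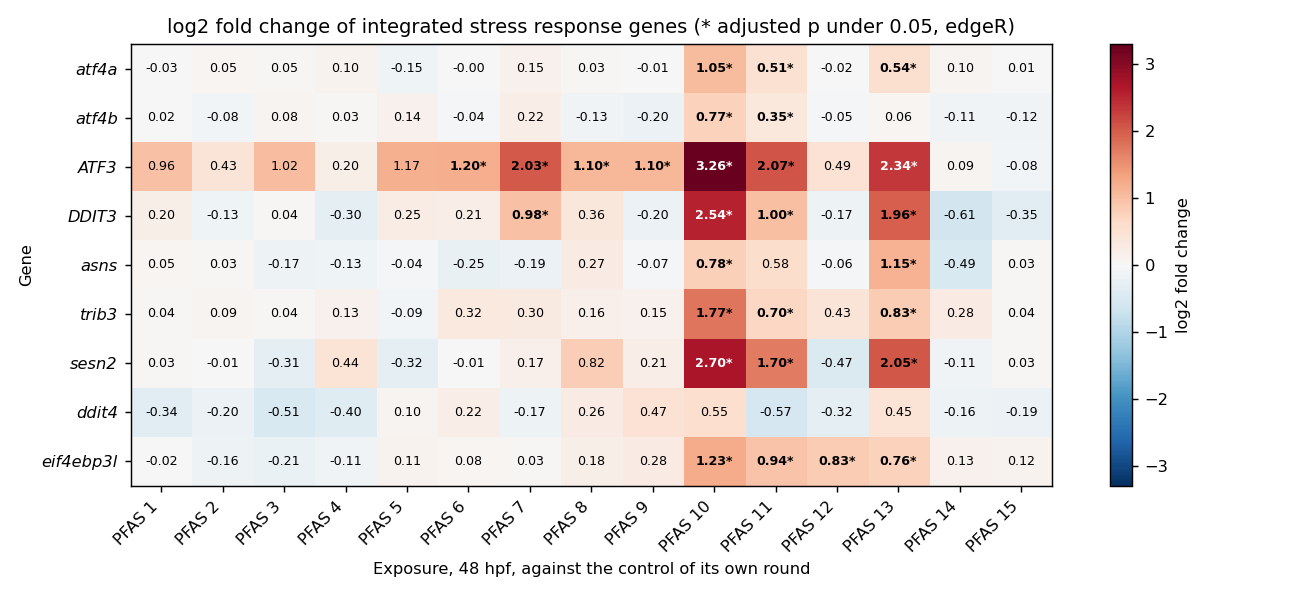
Map of the log2 fold change of 9 integrated stress response genes (vertical) at 48 hpf after each of 15 PFAS (horizontal) against the control of the same round, with an asterisk where the adjusted p was under 0.05 in edgeR. Most called values sit in the columns of PFAS 10, PFAS 11 and PFAS 13, with 8, 7 and 7 of 9, and along ATF3, which was called after 7 PFAS. The others are DDIT3 after PFAS 7 and eif4ebp3l after PFAS 12.

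The ATF4 pair stands at the head of the pathway. The gene atf4a (ENSDARG00000111939) was the most abundant of the 9, with Control Round 1 libraries from 82.8 to 106 CPM and a median of 97.2. Its levels were 280, 162, 180 and 171 CPM in the 4 PFAS 10 libraries, all above the highest control. In the PFAS 11 libraries atf4a stood at 127, 130, 149 and 138 CPM, and in the PFAS 13 libraries at 156, 118, 148 and 136 CPM. None of these 8 libraries overlapped the controls either. The fold change was 2.07 after PFAS 10 (log2 1.05 ± 0.09 SE, n = 4 against 6, adjusted p = 2.10e-14 in edgeR), 1.45 after PFAS 13 (log2 0.54 ± 0.09, adjusted p = 7.16e-06) and 1.42 after PFAS 11 (log2 0.51 ± 0.09, adjusted p = 2.39e-05). After the other 12 PFAS its log2 fold change stayed between -0.15 and 0.15 and was not called.

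Its paralog atf4b (ENSDARG00000038141) had control levels of 52 to 60.6 CPM with a median of 53.7. It was higher in all 4 PFAS 10 libraries, at 126, 78, 99.9 and 69 CPM, and in all 4 PFAS 11 libraries, at 70.7, 62.8, 77.7 and 67.2 CPM. The log2 fold changes were 0.77 ± 0.08 (adjusted p = 3.85e-11) and 0.35 ± 0.08 (adjusted p = 0.00171) in edgeR. In the PFAS 13 libraries atf4b stood at 53.7, 61.3, 55.3 and 58.3 CPM and overlapped the controls. The log2 fold change there was 0.06, with a 95% interval from -0.11 to 0.23, so of the ATF4 pair only atf4a was called after PFAS 13. After PFAS 7 every library lay above the controls, at 63.8, 63.9, 65.7 and 62 CPM, but the log2 fold change of 0.22 was not called (adjusted p = 0.338).

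ATF3 (ENSDARG00000007823), a stress-induced transcription factor that binds the same kind of sites as ATF4, was called after more PFAS than any other of the 9 genes. Control Round 1 libraries held 4.73 to 9.36 CPM with a median of 7.65. The PFAS 10 libraries held 133, 40.4, 46.8 and 58.1 CPM, and the lowest of them was above 4 times the highest control. ATF3 stood at 37.7, 25.1, 38.5 and 46.1 CPM after PFAS 13, at 27.9, 29.4, 38.8 and 25.6 CPM after PFAS 11 and at 19, 33.8, 36.4 and 29.2 CPM after PFAS 7. All 16 of these libraries lay above all controls. The fold change was 9.59 after PFAS 10 (log2 3.26 ± 0.25, adjusted p = 3.41e-17), 5.08 after PFAS 13 (log2 2.34 ± 0.25), 4.21 after PFAS 11 (log2 2.07 ± 0.25) and 4.09 after PFAS 7 (log2 2.03 ± 0.25), each with an adjusted p of 1.69e-08 or lower in edgeR.

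Smaller rises of ATF3 were called after 3 further PFAS. PFAS 6 libraries held 8.49, 19.9, 18.3 and 19.7 CPM, with replicate 1 inside the control range. PFAS 8 libraries held 16.3, 13, 15.8 and 17.1 CPM, all above the controls, and PFAS 9 libraries held 15.6, 17, 21.4 and 7.59 CPM, with replicate 4 inside the control range. The log2 fold changes were 1.2 ± 0.25 after PFAS 6 (adjusted p = 0.0122), 1.1 ± 0.25 after PFAS 8 (adjusted p = 0.00374) and 1.1 ± 0.25 after PFAS 9 (adjusted p = 0.00185) in edgeR. The call after PFAS 6 was lost without any one of PFAS 6 replicates 2, 3 or 4 or Control Round 1 replicate 5, with adjusted p between 0.0645 and 0.104.

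ATF3 also stood high without being called in several first-round exposures. All 4 libraries of PFAS 1 (14.6, 9.48, 22.2 and 10 CPM) and all 4 of PFAS 3 (11.2, 18.2, 10.2 and 19.3 CPM) were above every control. Such separation held for 0.625% and 0.538% of all genes. The log2 fold changes of ATF3 were 0.96 (adjusted p = 0.574) and 1.02 (adjusted p = 0.183) in edgeR. After PFAS 5 the log2 fold change was 1.17 (adjusted p = 0.0658), and it was called without PFAS 5 replicate 4 (log2 1.5, adjusted p = 0.00438). Control Round 2 libraries held 7.11, 8.9, 12.1 and 10.4 CPM, and the second-round exposures gave log2 fold changes from -0.08 to 0.43, none called. The PFAS 1 values of 9.48 and 10 CPM and the PFAS 3 values of 11.2 and 10.2 CPM lay inside the range of Control Round 2.

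DDIT3 (ENSDARG00000059836), which encodes CHOP, the factor tied to cell death under lasting ER stress, was called after PFAS 7, 10, 11 and 13. Control Round 1 libraries held 5.86 to 14.3 CPM with a median of 9.86. The PFAS 10 libraries held 99.6, 37, 47.9 and 48.2 CPM and the PFAS 13 libraries 31.2, 34.7, 41.4 and 48.9 CPM. PFAS 11 libraries stood lower, at 18.1, 23.2, 19.9 and 18.8 CPM, and PFAS 7 libraries at 16.4, 19.6, 23.8 and 19 CPM, yet all 16 libraries were above all controls. The fold change was 5.81 after PFAS 10 (log2 2.54 ± 0.19, adjusted p = 5.22e-18), 3.90 after PFAS 13 (log2 1.96 ± 0.19, adjusted p = 7.91e-14), 2.00 after PFAS 11 (log2 1.00 ± 0.19, adjusted p = 3.19e-05) and 1.97 after PFAS 7 (log2 0.98 ± 0.19, adjusted p = 0.000513) in edgeR. No share over all genes was worked out for exposed libraries that lie below every control. In that way all 4 DDIT3 values after PFAS 14, at 5.61, 8.46, 7.15 and 6.09 CPM, lay below all Control Round 2 libraries. That log2 fold change of -0.61 was not called (p = 0.00694 before adjustment, adjusted p = 1, edgeR).

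Among the targets, asns (ENSDARG00000016375, asparagine synthetase) was highest after PFAS 13. Control Round 1 libraries held 3.45 to 4.91 CPM with a median of 4.22, and the PFAS 13 libraries held 8.14, 6.63, 12.2 and 11 CPM. The PFAS 10 libraries held 11, 5.66, 5.1 and 7.68 CPM and the PFAS 11 libraries 6.6, 5.48, 5.55 and 8.08 CPM. All 12 libraries were above the controls, several by little. The log2 fold change was 1.15 ± 0.22 after PFAS 13 (adjusted p = 6.31e-05) and 0.78 ± 0.23 after PFAS 10 (adjusted p = 0.0110), while 0.58 ± 0.23 after PFAS 11 was not called (adjusted p = 0.0778, edgeR; 0.0347 in a fit of only those groups). Without PFAS 10 replicate 1 the PFAS 10 value was 0.52 and no longer called (adjusted p = 0.185).

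The pseudokinase gene trib3 (ENSDARG00000016200), whose product feeds back on ATF4 and DDIT3 in mammals, had control levels of 7.01 to 8.91 CPM with a median of 7.93. It stood at 38.2, 15.3, 20.2 and 34.8 CPM after PFAS 10, the 2 highest libraries being replicates 1 and 4. It stood at 14.6, 9.13, 16.2 and 16.4 CPM after PFAS 13, all above the controls, and at 8.64, 11.7, 17.8 and 13.1 CPM after PFAS 11, with replicate 1 inside the control range. The fold change was 3.41 after PFAS 10 (log2 1.77 ± 0.17, adjusted p = 2.29e-13), 1.78 after PFAS 13 (log2 0.83 ± 0.17, adjusted p = 0.000148) and 1.62 after PFAS 11 (log2 0.70 ± 0.17, adjusted p = 0.00188) in edgeR. Without PFAS 11 replicate 3 the last of these was 0.50 and not called (adjusted p = 0.0636). After PFAS 12 all 4 libraries, at 10.6, 12, 9.41 and 10.8 CPM, were above the controls, but the log2 fold change of 0.43 was not called (adjusted p = 0.0829). The glutathione-degrading enzyme gene chac1 (ENSDARG00000070426) could not be followed in these exposures, since all 70 libraries held a count of 0. In the separate time course it was measured at 48 hpf, at a mean log2 value of 9.61 in the controls and 9.57 with NB2. The count of 0 therefore does not show that the transcript was absent, and its reason was not worked out.

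Of the genes whose products restrain the growth kinase mTORC1, sesn2 (ENSDARG00000070012, a sestrin that senses leucine) rose most. Control Round 1 libraries held 1.74 to 4.79 CPM with a median of 3.19. The PFAS 10 libraries held 36.9, 16, 12.8 and 20.5 CPM, the PFAS 13 libraries 15.1, 8.08, 14 and 18 CPM, and the PFAS 11 libraries 9.2, 8.68, 14.4 and 10.9 CPM. None of the 12 overlapped the controls. The fold change was 6.49 after PFAS 10 (log2 2.70 ± 0.26, adjusted p = 4.39e-13), 4.15 after PFAS 13 (log2 2.05 ± 0.26, adjusted p = 2.55e-09) and 3.26 after PFAS 11 (log2 1.70 ± 0.26, adjusted p = 4.93e-07) in edgeR. PFAS 8 libraries held 6.48, 6.32, 4.33 and 6.19 CPM, 3 of 4 above the controls, and their log2 fold change of 0.82 was not called (adjusted p = 0.0681). It was called without Control Round 1 replicate 1 (log2 0.91, adjusted p = 0.0498) or replicate 4 (log2 0.96, adjusted p = 0.0365).

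The gene eif4ebp3l (ENSDARG00000041607), one of the binding proteins that hold the cap-binding factor eIF4E, was the only one of the 9 called after PFAS 12. Control Round 1 libraries held 11.8 to 19.1 CPM with a median of 13.9. It stood at 44.5, 32.7, 31.6 and 26.8 CPM after PFAS 10 and at 22.7, 23.8, 35.2 and 29.3 CPM after PFAS 11. It stood at 26, 27.4, 25.6 and 24.1 CPM after PFAS 12 and at 28.7, 22.2, 21.4 and 25.7 CPM after PFAS 13. All 16 libraries were above the controls, and those of PFAS 12 were the most alike. The log2 fold changes were 1.23 ± 0.13, 0.94 ± 0.13, 0.83 ± 0.13 and 0.76 ± 0.13 in that order, with adjusted p of 5.17e-06 or lower in edgeR.

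By contrast ddit4 (ENSDARG00000037618), which encodes REDD1, another mTORC1 brake, was called after none of the 15 PFAS by edgeR or DESeq2, and 0 of the 15 had an unadjusted p under 0.05 with either tool. It was also the least abundant, with 1.21 to 2.6 CPM in Control Round 1 and a median of 2.15. The PFAS 10 libraries held 3.86, 3.65, 1.61 and 2.62 CPM and the PFAS 11 libraries 1.32, 1.16, 1.84 and 1.05 CPM, and both overlapped the controls. The log2 fold change after PFAS 10 was 0.55 with a 95% interval from -0.04 to 1.14, so a change of the size seen in atf4a lay inside the interval.

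**Figure D2:**
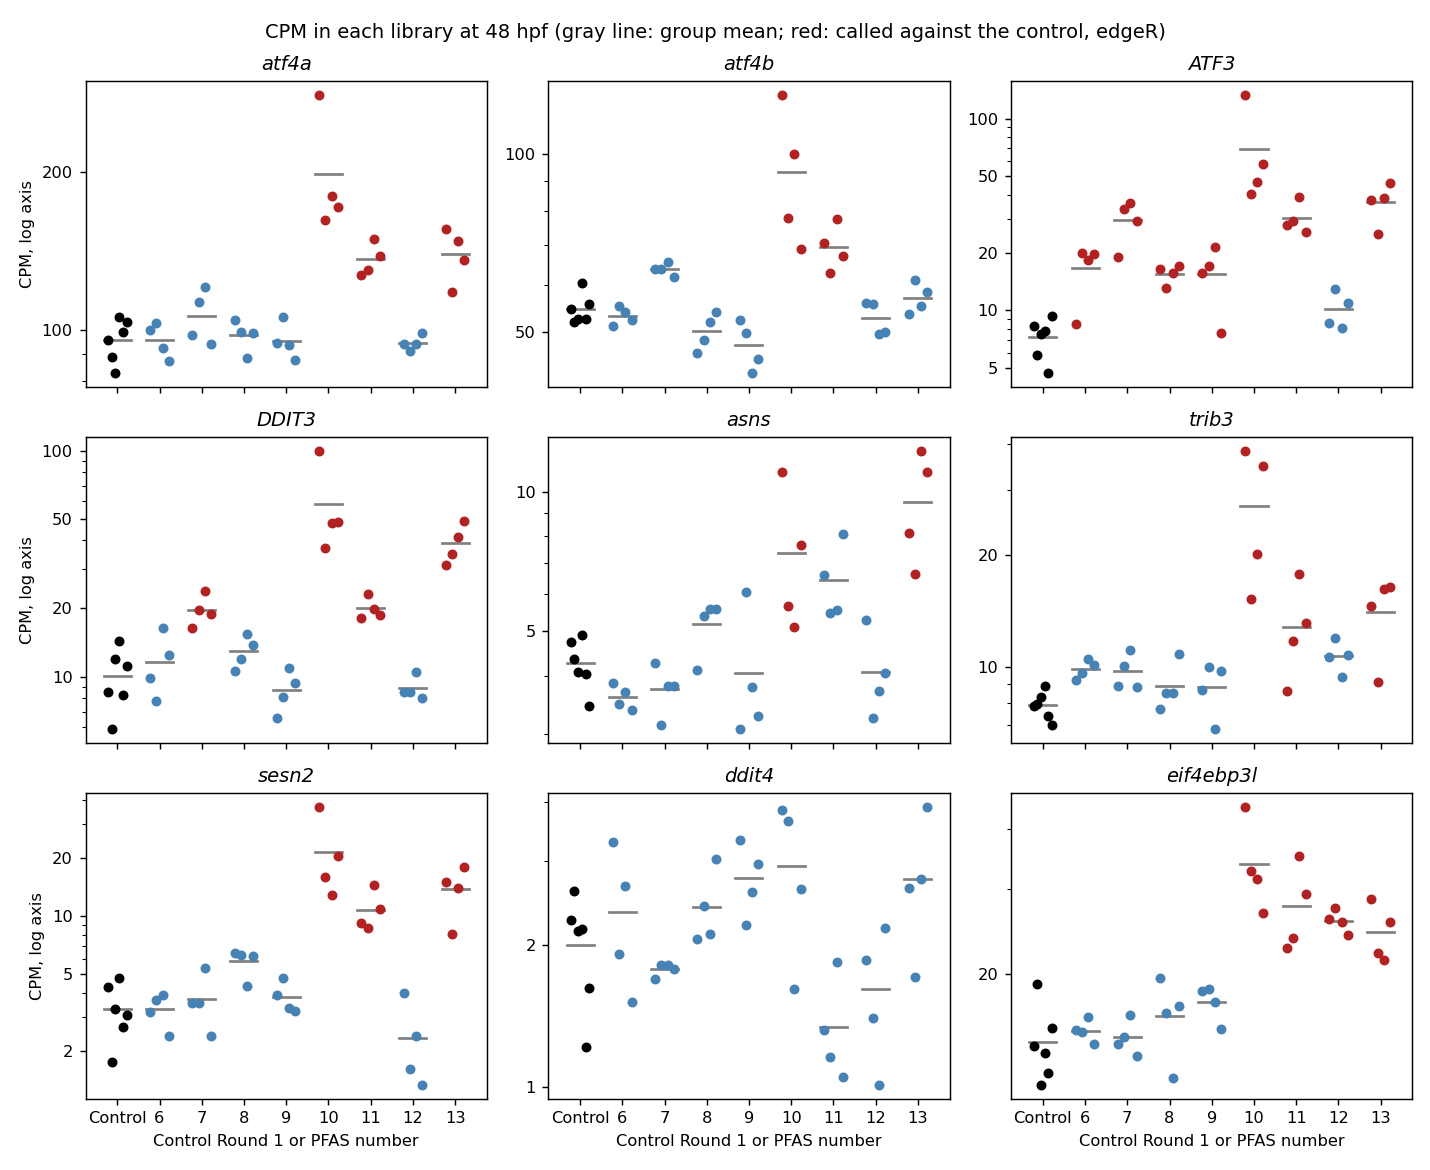
Level of 9 integrated stress response genes in each library (points, CPM on a log axis, 1 panel for each gene) for Control Round 1 and PFAS 6 to 13 at 48 hpf. Gray lines are group means and red points are exposures called against the control by edgeR. PFAS 10 replicate 1 is the highest PFAS 10 library in all 9 panels, and the PFAS 11 and PFAS 13 points of DDIT3 do not overlap.

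After PFAS 1, 2, 3, 4, 5, 14 and 15 none of the 9 genes was called by edgeR or by DESeq2. At an unadjusted p under 0.05, edgeR gave 1 gene each after PFAS 1, PFAS 3 and PFAS 5, which was ATF3 each time, and 1 after PFAS 14, which was DDIT3, and DESeq2 gave the same counts. No gene reached that level after PFAS 2, PFAS 4 or PFAS 15. Few genes of any kind passed in these exposures, with 0% of all genes after PFAS 1, 2, 14 and 15, 0.041% after PFAS 3, 0.00456% after PFAS 4 and 0.0547% after PFAS 5 in either direction. After PFAS 5, 0.0502% rose.

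Control Round 1 had 1 pool on each of 6 collection days, so each exposed pool could also be set against the control pool of its own day. Of 28 called combinations of gene and PFAS, 27 had every same-day log2 difference above 0. Where every exposed library already lay above every control this had to hold, so the count says little there. It could fail only for ATF3 after PFAS 6 and PFAS 9 and for trib3 after PFAS 11. The exception was ATF3 after PFAS 9, where 3 of 4 were above 0, from -0.13 to 1.70. For ATF3 after PFAS 10 the same-day differences averaged 3.02 and ran from 2.41 to 4.48, and for DDIT3 after PFAS 13 they averaged 1.77 and ran from 1.27 to 2.32.

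PFAS 10 replicate 1 stood apart from the other 3 PFAS 10 libraries, with the highest level of all 9 genes in that group. Without it, 7 of the 9 genes were still called, asns being the one lost. The log2 fold changes were then 2.74 for ATF3, 2.31 for sesn2, 2.15 for DDIT3, 1.56 for trib3, 1.07 for eif4ebp3l, 0.84 for atf4a and 0.59 for atf4b. The median over the 9 genes went from 1.23 to 1.07.

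Exposures were next compared with each other directly, in 10 pairs of PFAS, with p-values adjusted over all genes within each pair. Doses matched only in 2 pairs. PFAS 14 and PFAS 15, whose chains differ by 1 fluorinated carbon, differed in none of the 9 genes at 20 µM by edgeR or DESeq2, and 0% of all genes were called. At an unadjusted p under 0.05 both tools gave 1 gene, asns, with a log2 difference of -0.53 and a 95% interval from -1.04 to -0.01. The interval for ATF3 ran from -0.40 to 0.73 and that for DDIT3 from -0.70 to 0.18, so a difference of up to log2 0.73 in ATF3 lay inside its interval.

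PFAS 5, a sulfonic acid, and PFAS 6, an N-ethyl sulfonamide, were both given at 100 µM. None of the 9 genes was called between them by edgeR or DESeq2, none had an unadjusted p under 0.05, and 0% of all genes were called. ATF3 differed by -0.03 with a 95% interval from -0.61 to 0.56, and trib3 by -0.41 with an interval from -0.82 to 0.01. Libraries of these exposures did not overlap for trib3 and atf4b, and such separation, in either direction, held for 5.76% of all genes.

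PFAS 10 and PFAS 11 are sulfonamides that differ in the length of the fluorinated chain, at 8 µM and 28 µM. With PFAS 10, at the lower dose, 7 of the 9 genes were higher than with PFAS 11, where 7.89% of all genes differed in either direction. DDIT3 differed most, by log2 1.54 ± 0.21 (adjusted p = 8.93e-08, edgeR), with all PFAS 10 libraries above all PFAS 11 libraries. Libraries of these exposures did not overlap, in either direction, for 10.6% of all genes. ATF3 differed by 1.19 ± 0.27, ddit4 by 1.12 ± 0.34, trib3 by 1.08 ± 0.19, sesn2 by 0.99 ± 0.28, atf4a by 0.54 ± 0.10 and atf4b by 0.42 ± 0.09. The genes not called were asns, with a 95% interval from -0.30 to 0.69, and eif4ebp3l, with an interval from 0.01 to 0.57. Without PFAS 10 replicate 1 the count fell from 7 to 3, and ATF3, atf4b, sesn2 and ddit4 were the genes lost. The call of ddit4 was also lost without PFAS 10 replicate 2 or PFAS 11 replicate 1, 2 or 4 (adjusted p from 0.0540 to 0.0844, edgeR). That of sesn2 was also lost without PFAS 11 replicate 1 or 2 (adjusted p of 0.0518 and 0.0700, edgeR). As the doses differ, these values stand side by side and do not compare potency.

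Against PFAS 13, a diol at 25 µM, PFAS 10 gave higher levels of 6 of the 9 genes, where 13.9% of all genes differed. The difference in atf4b was log2 0.71 ± 0.09 (adjusted p = 1.84e-08, edgeR), and that in trib3 was 0.94 ± 0.19. For asns the sign was turned, at -0.37 with a 95% interval from -0.86 to 0.12, not called. Without PFAS 10 replicate 1 or without PFAS 13 replicate 2 the count was 3. DDIT3 was also lost without PFAS 13 replicate 1 or 3, and eif4ebp3l without PFAS 13 replicate 3.

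PFAS 11 and PFAS 13, at 28 µM and 25 µM, differed in 1 of the 9 genes, where 3.99% of all genes differed. DDIT3 was lower with PFAS 11 by log2 0.96 on average (-0.96 ± 0.21, 95% interval -1.37 to -0.55, adjusted p = 0.00116, edgeR), and their libraries did not overlap. The libraries did not overlap for atf4b either, which was higher with PFAS 11 by 0.29 without being called (adjusted p = 0.0700, edgeR). Such separation, in either direction, held for 8.9% of all genes in this pair. DESeq2 called atf4b and ddit4 as well, 3 genes in all. Without PFAS 13 replicate 2 ddit4 was called (-1.19, adjusted p = 0.0431), and without PFAS 11 replicate 2 atf4b was called (0.33, adjusted p = 0.0451).

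Between PFAS 7 and PFAS 13, at 39.7 µM and 25 µM, ATF3 was not called, at log2 -0.31 with a 95% interval from -0.84 to 0.21. In 6 other genes PFAS 7 was lower, where 12.8% of all genes differed. The differences were -1.88 ± 0.30 in sesn2, -1.34 ± 0.25 in asns, -0.98 ± 0.20 in DDIT3, -0.73 ± 0.14 in eif4ebp3l, -0.53 ± 0.19 in trib3 and -0.39 ± 0.10 in atf4a. The call of trib3 rested on the edge of the limit (adjusted p = 0.0499), and it was lost when PFAS 7 replicate 1, 2 or 4, or PFAS 13 replicate 1, 3 or 4, was left out.

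**Figure D3:**
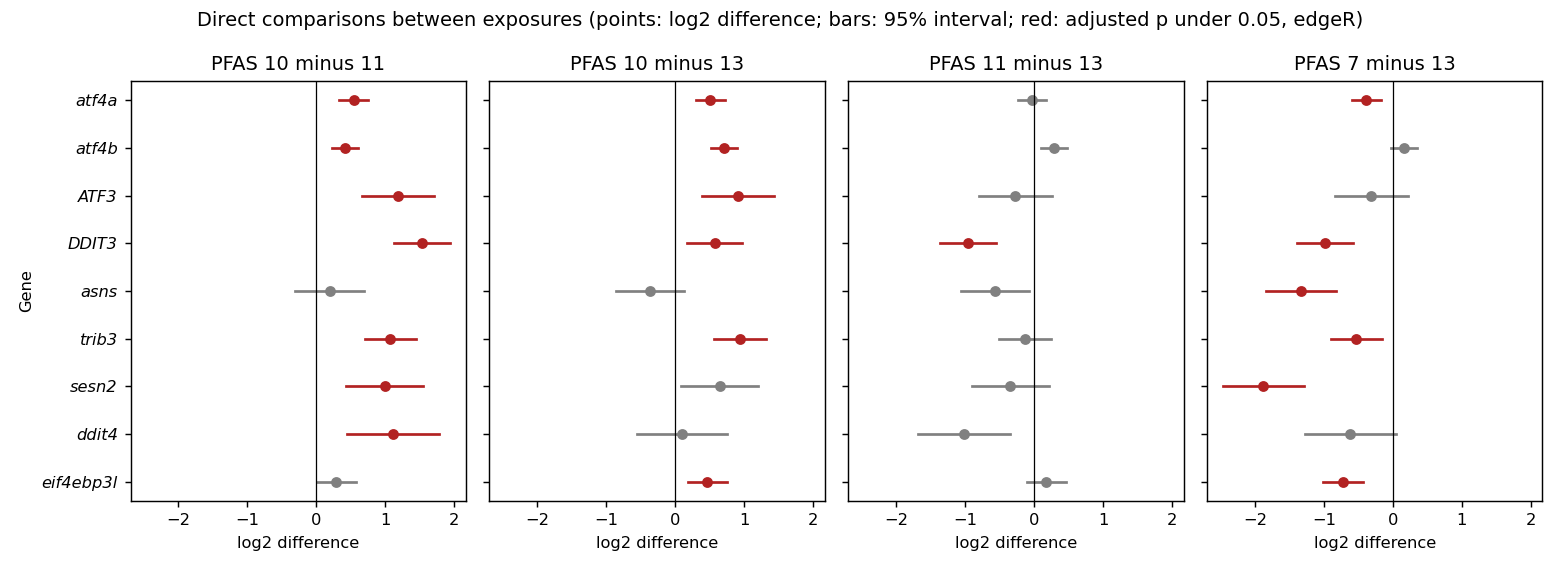
Log2 difference between exposures (points) with 95% intervals (bars) for 9 integrated stress response genes, in 4 pairs of PFAS at unequal doses, with edgeR calls in red. PFAS 10 exceeds PFAS 11 in 7 genes, PFAS 11 and PFAS 13 differ in DDIT3, and PFAS 7 is below PFAS 13 in 6 genes with ATF3 not among them.

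In the other pairs, PFAS 6 was lower than PFAS 10 in 8 of the 9 genes, where 8.14% of all genes differed, and PFAS 3 was lower than PFAS 10 in all 9, where 11.2% did. PFAS 10 was higher than PFAS 12 in 8 of the 9, where 18.4% did. Without PFAS 10 replicate 1 these counts were 7, 7 and 6. Between PFAS 3 and PFAS 10 the call of ddit4 was also lost without PFAS 3 replicate 1, 2 or 4 or PFAS 10 replicate 2. Between PFAS 10 and PFAS 12, asns was also lost without PFAS 12 replicate 2. In that pair eif4ebp3l was also lost without PFAS 10 replicate 2 or PFAS 12 replicate 1, 3 or 4. PFAS 8 and PFAS 9 differed in none by edgeR or DESeq2, where 1.33% of all genes differed, and in DDIT3 and sesn2 at an unadjusted p under 0.05.

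Across the 69 libraries the genes varied together to unequal degrees. Pearson's r of log2 CPM was 0.85 between sesn2 and atf4a, 0.83 between trib3 and atf4a and 0.83 between ATF3 and DDIT3. With group means taken out, r was 0.51, 0.43 and 0.27, so much of the likeness lay between exposures. For ddit4, r with the other 8 genes ran from 0.04 to 0.32. All these values share libraries and their depth and are given as a description.

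Among 12558 genes with a symbol and enough reads, those most like ATF3 were IGFBP1 (r = 0.856), DDIT3 (r = 0.825) and FOSL1 (r = 0.809). Those most like DDIT3 were arhgef1 (r = 0.884), nupr1b (r = 0.846) and atf5b (r = 0.833). Those most like sesn2 were IGFBP1 (r = 0.891), SLC7A3 (r = 0.874) and AARS1 (r = 0.868). For eif4ebp3l they were H1-10, tifa and MKNK2, at r from 0.809 to 0.829. IGFBP1 encodes a secreted binding protein of insulin-like growth factors, nupr1b and atf5b encode stress-induced nuclear factors, SLC7A3 a carrier of cationic amino acids, and AARS1 the alanyl-tRNA synthetase.

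Other genes of the pathway were taken as lists by name. Their counts stand beside the 7.26%, 6.58%, 7.63% and 0.762% of all genes that rose after PFAS 10, 11, 13 and 7. The list named ATF and C/EBP partners held 14 tested gene IDs of ATF, C/EBP and other stress-related nuclear factors. It includes atf6, xbp1, creb3l3a and nupr1b, so it is wider than factors that act with ATF4. Of these 14, 9 rose after PFAS 10, 8 after PFAS 11, 5 after PFAS 13 and 2 after PFAS 7, and none fell in these exposures. From this list nupr1b rose by log2 1.99 ± 0.14 after PFAS 10, 1.22 ± 0.14 after PFAS 13, 1.03 ± 0.14 after PFAS 7 and 0.99 ± 0.14 after PFAS 11. Another gene of the list, cebpb, rose by log2 1.69 ± 0.19 after PFAS 11 and also after PFAS 7, 8, 9, 10, 12 and 13. The gene ppp1r15a, which encodes GADD34, the phosphatase subunit that restores eIF2, held 50.2, 27.9, 31.6 and 33.1 CPM after PFAS 10 against a control mean of 7.17. It rose by log2 2.31 ± 0.22 after PFAS 10 (adjusted p = 2.73e-13, edgeR) and by 0.98, 0.65 and 0.99 after PFAS 11, 12 and 13.

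Genes that supply amino acids moved with the 10 genes to different degrees. Of 19 cytosolic aminoacyl-tRNA synthetases, which load amino acids onto tRNAs, all 19 rose after PFAS 13, 10 after PFAS 10 and 8 after PFAS 11, with medians of log2 0.67, 0.28 and 0.27. For aars1 the rise was 1.12 ± 0.10 after PFAS 13 and 1.05 ± 0.10 after PFAS 10. Of 8 serine, glycine and one-carbon enzymes, 6 rose after PFAS 13, 5 after PFAS 10 and 4 after PFAS 11. Among them phgdh, the first enzyme of serine synthesis, rose by 1.71 ± 0.13, 0.96 ± 0.13 and 0.75 ± 0.13. Of 11 gene IDs for amino acid carriers under ATF4, 6 rose after PFAS 10 and 4 each after PFAS 11 and PFAS 13, with slc1a4 at 1.45 ± 0.14, 1.06 ± 0.14 and 1.28 ± 0.14. After PFAS 7 none of these synthetases, enzymes or carriers was called by edgeR, but only 0.944% of all genes were called there, so a count of 0 is near that background.

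ER chaperones, which fold secreted proteins and rise when unfolded protein builds up, were higher in some of these exposures and lower in others. Of 17 genes, 7 rose and none fell after PFAS 7, while 9 fell and 1 rose after PFAS 10, 10 fell after PFAS 11 and 3 fell after PFAS 13. Of all genes, 6.83%, 7.52% and 8.52% fell after PFAS 10, 11 and 13. The list medians were log2 0.41, -0.43, -0.49 and -0.18. For hsp90b1 (GRP94) the control libraries ran from 169 to 196 CPM, the PFAS 7 libraries were at 243, 307, 297 and 203 CPM, and the PFAS 10 libraries at 129, 122, 92.3 and 123 CPM. Its log2 fold change was 0.49 ± 0.09 after PFAS 7 and -0.68 ± 0.10 after PFAS 10, both called. ATF3 and DDIT3 thus rose beside higher ER chaperone genes after PFAS 7 and beside lower ones after PFAS 10 and PFAS 11.

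Inducible heat shock genes mostly respond to unfolded protein in the cytosol, but the list also holds hspd1 and hspe1, which encode mitochondrial chaperones. Of its 15 genes, 9 rose after PFAS 10 and 6 after PFAS 7. Only 1 rose after PFAS 11 and 3 after PFAS 13. Of all genes, 7.26%, 0.762%, 6.58% and 7.63% rose after PFAS 10, 7, 11 and 13, so the count of 1 after PFAS 11 is near that share. The gene hsp70.3 held 238, 79.1, 22.4 and 33.2 CPM after PFAS 10 and 13, 16.7, 23.8 and 11.3 CPM after PFAS 7, with a control mean of 1.8. Its log2 fold changes were 5.69 ± 0.37 and 3.17 ± 0.35, and near-identical hsp70 copies may share its reads. The autophagy receptor gene sqstm1 rose most after PFAS 7, by 2.71 ± 0.17, and by 1.70 ± 0.17 after PFAS 10.

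The smaller lists showed fewer calls. Of 10 enzymes of proline, glutamate and alanine supply and of transsulfuration, 5 rose after PFAS 13, 3 after PFAS 10 and 2 after PFAS 11, and none fell. Among them cbsb, a cystathionine beta-synthase, rose by log2 1.39 ± 0.13 after PFAS 10 and 1.35 ± 0.13 after PFAS 13, and by 0.44 ± 0.13 after PFAS 11. The mitochondrial stress list is not separate from the others. Its atf5a, hspd1 and fgf21 are also counted among the partners, the heat shock genes and the secreted targets, in that order. Of 8 mitochondrial stress genes, 3 rose after PFAS 10, 3 after PFAS 13 and 2 after PFAS 11. The relay gene dele1, whose human product carries a mitochondrial signal to an eIF2 kinase, rose by 1.24 ± 0.13, 0.53 ± 0.13 and 0.73 ± 0.13 in these. Of 10 secreted and autophagy targets, 5 rose after PFAS 10 and 3 each after PFAS 11 and PFAS 13, with 1 falling after PFAS 11 and 2 after PFAS 12. The secreted glycoprotein gene stc2a rose by 1.76 ± 0.17 after PFAS 10, 1.54 ± 0.17 after PFAS 13 and 0.53 ± 0.18 after PFAS 11, and fell by 0.54 after PFAS 12. Of 9 further genes of the brake and tribbles families, 2 rose after PFAS 10, sesn3 being one at 0.75 ± 0.11, and at most 1 rose after any other PFAS. Counts of 2 or 3 in these lists often changed when 1 library was left out, as for the PFAS 11 enzymes, which went from 2 to 0 without PFAS 11 replicate 4.

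**Figure D4:**
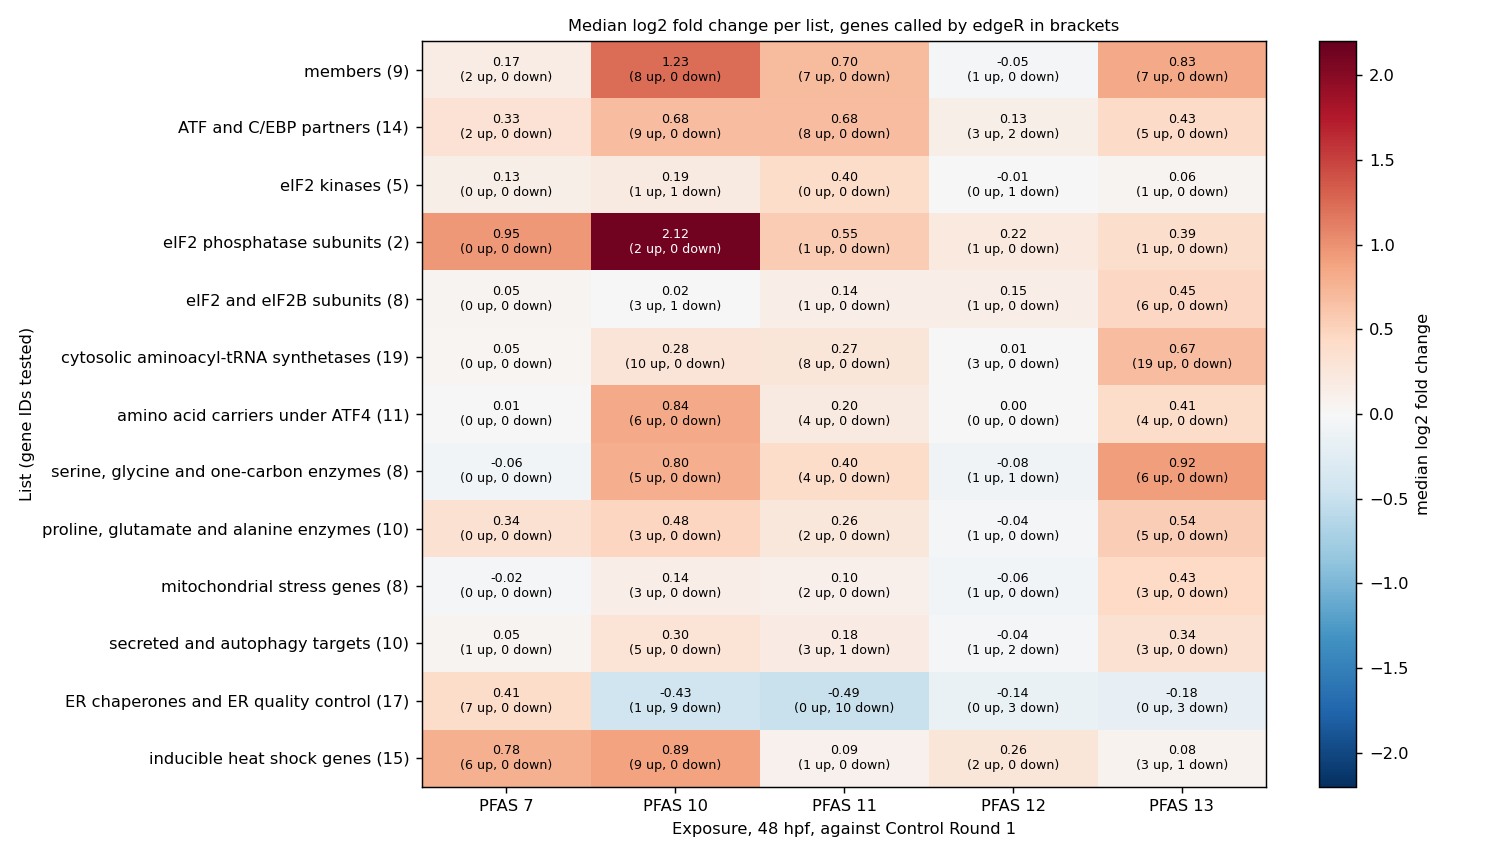
Median log2 fold change of the integrated stress response genes (members) and of 12 other lists (vertical, gene IDs tested in brackets) after PFAS 7, 10, 11, 12 and 13 (horizontal), with the number called up and down by edgeR in each cell. ER chaperones are up after PFAS 7 and down after PFAS 10 and PFAS 11, and all 19 synthetases are up after PFAS 13.

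Of the upstream parts of the pathway, the 5 eIF2 kinase genes showed 1 call up (eif2ak1, log2 1.28 ± 0.40, from a control mean of 1.07 CPM) and 1 down (eif2ak2, -0.94 ± 0.30) after PFAS 10 and 1 up (eif2ak3, 0.43 ± 0.13) after PFAS 13. After PFAS 12 eif2ak2 fell by 0.89 on the log2 scale. These single calls stand beside 7.26% of all genes rising and 6.83% falling after PFAS 10, 7.63% rising after PFAS 13 and 7.47% falling after PFAS 12. Each was lost without 1 library: eif2ak1 without PFAS 10 replicate 3, eif2ak3 without PFAS 13 replicate 1, eif2ak2 after PFAS 10 without replicate 1, 3 or 4, and eif2ak2 after PFAS 12 without PFAS 12 replicate 1 or 2 or Control Round 1 replicate 3, 4 or 5. Of 8 gene IDs for subunits of eIF2 and its exchange factor, 6 rose after PFAS 13 and 3 rose and 1 fell after PFAS 10. The counts of several lists depended on 1 library. Without PFAS 10 replicate 1, PFAS 10 gave 7 partners, 9 synthetases, 7 carriers, 6 heat shock genes and 1 phosphatase subunit up, and 9 ER chaperones down. For PFAS 11, 5 partners rose without replicate 3 and 6 ER chaperones fell without replicate 4. For PFAS 13, 5 ER chaperones fell without Control Round 1 replicate 2, and for PFAS 7, 1 partner rose when PFAS 7 replicate 2 or 3, or Control Round 1 replicate 3, 4 or 5, was left out.

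Levels of tissue markers moved in the same exposures. Of 8 neuron markers, 6 fell after PFAS 11, 6 after PFAS 13 and 5 after PFAS 10, and 2, 1 and 1 rose. Of all genes, 6.83%, 7.52% and 8.52% fell after PFAS 10, 11 and 13, and 7.26%, 6.58% and 7.63% rose. The counts of 1 rising neuron marker are near those shares. After PFAS 8 and PFAS 9, where ATF3 alone of the 9 measured genes was called, 4 neuron markers fell each time, and 3 muscle markers fell after PFAS 9. Of all genes, 1.74% and 3.84% fell after PFAS 8 and PFAS 9. The neuron markers' summed level ran from 2521 to 2901 CPM in Control Round 1, from 2158 to 2316 CPM after PFAS 10, from 1874 to 2116 CPM after PFAS 11 and from 2002 to 2198 CPM after PFAS 13. It also lay below all controls after PFAS 8 (2358 to 2465 CPM), PFAS 9 (2169 to 2431 CPM) and PFAS 12 (2174 to 2350 CPM). In each of these 3 exposures only 1 of the 9 stress genes was called. Of 8 muscle markers, 7 fell after PFAS 11, 6 after PFAS 13, 5 after PFAS 12, where 7.47% of all genes fell, and 2 after PFAS 10. Of 9 gene IDs for photoreceptor markers, 3 fell after PFAS 13 and 2 each after PFAS 10 and PFAS 11, with a summed level of 77.9 to 93.4 CPM in the controls and of 13.9 to 17.7 CPM after PFAS 13. The summed level ran from 48.8 to 50.0 CPM after PFAS 10 and from 30.9 to 58.9 CPM after PFAS 11. It was also below all controls after PFAS 8 (40.9 to 67.4 CPM) and PFAS 9 (50.6 to 60.7 CPM), and overlapped them after PFAS 12. After PFAS 7, where ATF3 and DDIT3 rose, none of the neuron, muscle or photoreceptor markers was called by edgeR, where 0.944% of all genes were called, and their summed levels overlapped the controls. Of the 6 liver markers 1 rose and 1 fell after PFAS 7. Skin markers rose in part, 3 of 5 after PFAS 12, where 6.77% of all genes rose, and 2 of 5 each after PFAS 10, 11 and 13. Of 6 liver markers 2 rose after PFAS 11, and 2 rose and 1 fell after PFAS 13. The liver count after PFAS 11 went to 0 without PFAS 11 replicate 2 or 3 or Control Round 1 replicate 1 or 5, and the 2 rises after PFAS 13 went to 0 without PFAS 13 replicate 1. Summed liver markers ran from 997 to 4120 CPM among the controls alone. Of 5 erythroid markers 4 fell after PFAS 9, which went to 1 without PFAS 9 replicate 1. Without 1 library the 2 muscle markers called after PFAS 10 went to 1, and the 2 skin markers called after PFAS 13 went to 0 without PFAS 13 replicate 1. No list had a marker at 0 in all libraries of these groups. The part of the tissue differences in the values of the stress genes was not tested.

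The time course of NB2 was deposited as log2 values on a variance-stabilized scale, so values here are log2 levels and differences of log2 levels, tested with limma. The labels name 5 pools of the control and 5 of NB2 at each age. The deposited values hold all 5 at 72 and 96 hpf but only 4 of each group at 48 hpf. Why a pool of each is missing at 48 hpf is not stated. At 48 hpf none of the 10 genes was called, none had an unadjusted p under 0.05, and 0% of all genes were called. At 72 hpf none of the 10 was called, where 0.728% of all genes were, and 4 had an unadjusted p under 0.05. These were ATF3, DDIT3 and eif4ebp3l, with differences above 0, and atf4b, with a difference of -0.44 (adjusted p = 0.246, limma). At 96 hpf all 10 were called and all were higher with NB2, where 18.4% of all genes were called and 8.22% were higher. The median difference of the 10 genes was 1.25 at 96 hpf and 0.16 at 72 hpf, beside -0.02 and 0.00 over all genes.

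The gene with the greatest difference at 96 hpf was chac1. Its control levels were 10.34, 9.70, 10.01, 9.92 and 10.09 and its NB2 levels 12.53, 11.73, 12.34, 12.30 and 12.64, with no overlap. The difference was 2.30 ± 0.15 (SE, n = 5 against 5, adjusted p = 3.02e-14, limma), a ratio of 4.91 on this scale. At 72 hpf the NB2 pools stood at 10.76, 10.54, 9.90, 10.71 and 9.70 and the controls at 9.78 to 10.31, so 3 of 5 NB2 pools were above all controls and 1 below all of them.

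ATF3 followed the same split at 72 hpf. Its NB2 levels were 7.41, 7.80, 6.55, 8.34 and 6.32 against 6.56, 6.63, 6.66, 6.45 and 6.55 in the controls, with the same 3 pools above all controls as for chac1. The difference of 0.71 ± 0.23 was not called (adjusted p = 0.138), but it was called without pool C (0.90, adjusted p = 0.0313) or pool E (0.95, adjusted p = 0.0250). At 96 hpf the NB2 pools stood at 9.02, 8.03, 8.60, 8.62 and 8.82 and the controls at 6.96, 6.51, 5.90, 6.51 and 6.41, a difference of 2.16 ± 0.23 (adjusted p = 3.78e-09, limma).

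DDIT3 at 72 hpf had NB2 levels of 9.34, 9.61, 8.97, 9.68 and 9.09 against 8.80 to 9.09 in the controls, a difference of 0.39 ± 0.11 that was not called (adjusted p = 0.0850, limma). Without pool C it was 0.48 and called (adjusted p = 0.0146). At 96 hpf its NB2 pools held 10.92, 10.48, 10.75, 10.80 and 10.66 against 9.26 to 9.71, a difference of 1.28 ± 0.11 (adjusted p = 2.14e-11). In the controls DDIT3 itself rose with age, by 1.2 from 48 to 72 hpf and by 0.49 from 72 to 96 hpf, both called.

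The ATF4 pair differed less on this scale than chac1, ATF3 and DDIT3. The atf4b values lay low on it, with a control mean of 5.24 at 96 hpf beside a lowest value of 3.59 in the series. At 48 hpf atf4b stood above asns in the counts (Control Round 1 means of 54.7 and 4.26 CPM). In the controls of this series it stood below asns (means of 5.61 and 7.32), so its level is not compared between the experiments. For atf4a the 96 hpf controls held 10.02, 9.47, 9.51, 9.51 and 9.75 and the NB2 pools 10.30, 10.11, 10.35, 10.34 and 10.50, a difference of 0.67 ± 0.09 (adjusted p = 1.75e-07). The controls had fallen by 0.57 from 72 to 96 hpf, and at 72 hpf both groups lay between 9.96 and 10.38. For atf4b the difference of 0.61 ± 0.18 (adjusted p = 0.0110) had 4 of 5 NB2 pools above all controls. Without control pool B it was 0.47 and not called (adjusted p = 0.0620).

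The remaining genes separated at 96 hpf without overlap. The differences were 1.79 ± 0.14 in trib3, 1.60 ± 0.11 in eif4ebp3l, 1.22 ± 0.18 in ddit4, 1.15 ± 0.17 in sesn2 and 0.64 ± 0.11 in asns, each with an adjusted p of 4.5e-05 or lower in limma. For eif4ebp3l the NB2 pools held 10.15, 9.51, 9.94, 10.24 and 9.99 against 8.17 to 8.52 in the controls. For ddit4 they held 6.36, 5.70, 6.22, 6.07 and 5.93 against 4.51 to 5.15. In all, 9 of the 10 genes had every NB2 pool above every control at 96 hpf, where 6.28% of all genes did. At 48 hpf 1 gene did, eif4ebp3l, with 8.09, 8.17, 8.12 and 8.33 against 8.03, 7.93, 7.80 and 8.08, where 0.99% of all genes did. That difference of 0.22 was not called (adjusted p = 0.989).

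**Figure D5:**
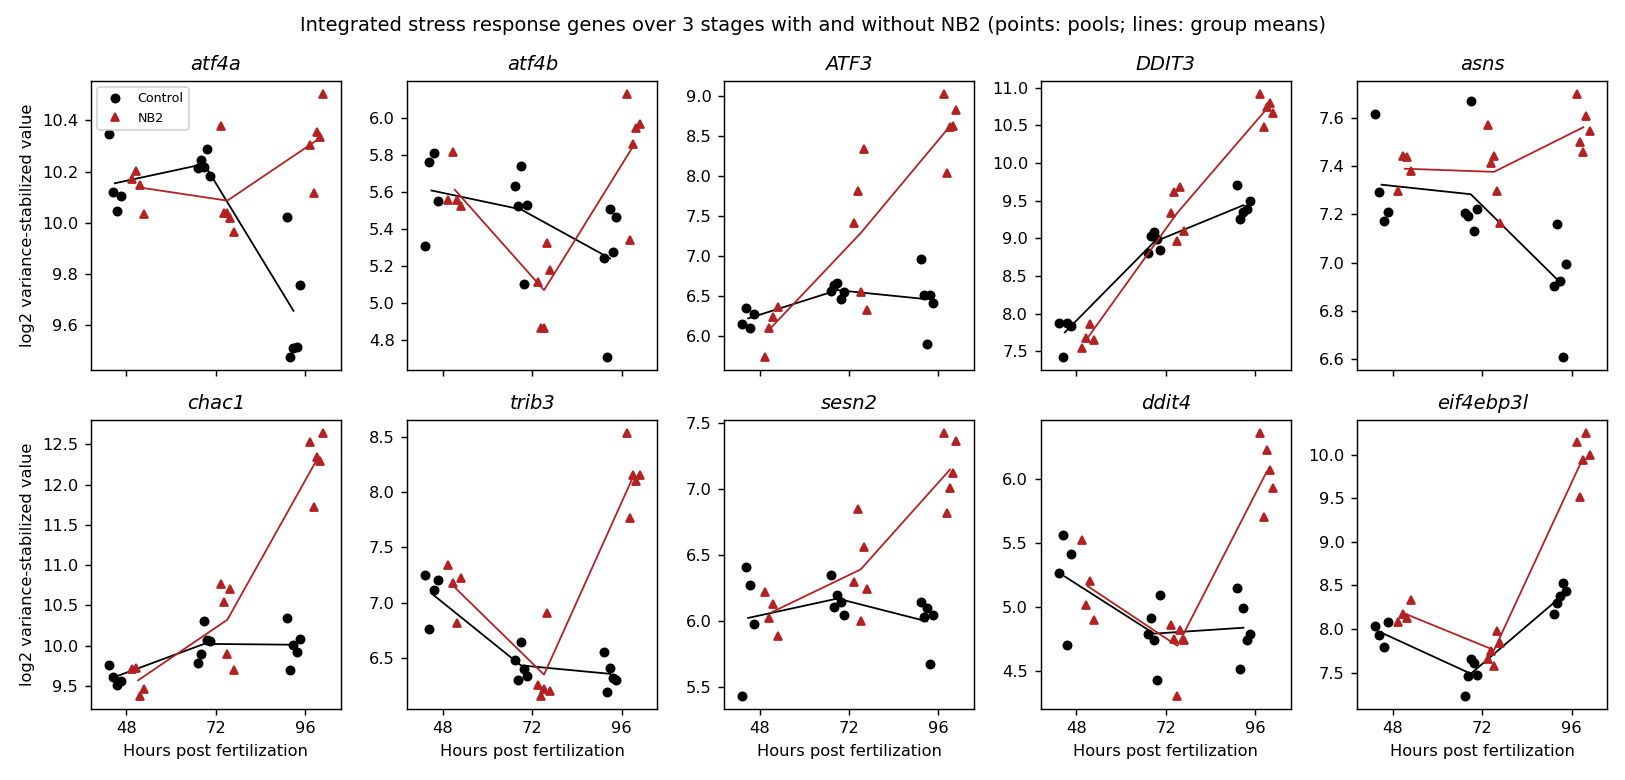
Log2 variance-stabilized level of 10 integrated stress response genes (1 panel each, vertical) in pools of control embryos (black circles) and NB2-exposed embryos (red triangles) at 48, 72 and 96 hpf (horizontal), with lines through group means. The groups overlap at 48 hpf in 9 genes, and at 96 hpf all genes but atf4b are separated, by 2.30 in chac1 and 0.64 in asns.

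The change of the NB2 effect with age was tested as an interaction. The effect was higher at 96 than at 72 hpf in all 10 genes, where it differed in 12.2% of all genes and was higher in 5.69%. For atf4b, atf4a, ddit4 and trib3 the effect at 72 hpf was below 0 and not called, at -0.44, -0.14, -0.10 and -0.08, so that the change exceeded the 96 hpf effect itself. The change was greatest in chac1, at 2.00 ± 0.22 (adjusted p = 3.13e-08), and trib3, at 1.87 ± 0.20 (adjusted p = 2.49e-08). The effect was higher at 96 than at 48 hpf in 9 of 10, where it differed in 7.25% of all genes, atf4b being the one not called (0.60, adjusted p = 0.189). From 48 to 72 hpf no gene was called, where 0.197% of all genes were, and ATF3 (0.82) and DDIT3 (0.45) had an unadjusted p under 0.05. The call of asns from 72 to 96 hpf was lost without control pool C of 72 hpf (0.45, adjusted p = 0.0514). From 48 to 96 hpf it was lost without any one of control pool A or NB2 pool A of 48 hpf, control pool D or NB2 pool A of 96 hpf.

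Some of these genes also changed with age in unexposed embryos. From 48 to 72 hpf 3 of the 10 were called, near the share of 25.6% over all genes. DDIT3 rose, while trib3 fell by 0.65 and eif4ebp3l fell by 0.47. From 72 to 96 hpf 4 of the 10 were called, where 17.6% of all genes were. DDIT3 and eif4ebp3l rose, the latter by 0.87, while atf4a and asns fell. The fall of asns, by 0.36, was not called without control pool C of 72 hpf (-0.27, adjusted p = 0.108) or control pool D of 96 hpf (-0.29, adjusted p = 0.0929).

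The same lists were matched by symbol in the NB2 series at 96 hpf, where 8.22% of all genes rose and 10.2% fell. Some symbols were not found there. Among them were hspa5, creld2 and dnajc3a of the ER chaperones and HSP90AA1 and HSPA2 of the heat shock genes. Of 14 inducible heat shock genes 11 rose, with a median of 1.02, led among the named ones by hspb9 (3.20 ± 0.28) and hsp70.3 (2.71 ± 0.20). Of 13 partners 6 rose, cebpb by 1.42 ± 0.13, and ppp1r15a rose by 1.35 ± 0.11. Of 18 aminoacyl-tRNA synthetases 9 rose, with a median of 0.26, and of 14 ER chaperones 2 rose, hsp90b1 being one of them at 0.43 ± 0.09. Of 8 serine, glycine and one-carbon enzymes 1 rose. This count and that of the ER chaperones are near the share of all genes that rose. Of 11 secreted and autophagy targets 6 rose, as did 5 of 8 mitochondrial stress genes and 4 of 10 enzymes of proline, glutamate and alanine supply. Of 11 amino acid carriers 4 rose and 2 fell, slc1a5 rising by 0.94 and slc3a2a falling, with a difference of -0.58. In the same pools, 4 of 8 muscle markers, 4 of 7 photoreceptor markers, 3 of 5 skin markers and 3 of 6 liver markers fell and 1 liver marker rose. The part of these tissue differences in the values of the 10 genes was not tested.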

How the data were processed

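QuantSeq 3' libraries were aligned with STAR to GRCz11 and counted by strand with HTSeq, and the authors deposited raw counts per gene, here summed over the 2 flow cells of each library. The NB2 series was deposited by the authors as log2 variance-stabilized values. The authors' tables of fold changes, p-values and enrichment were not used. The 10 genes and the other lists were chosen with earlier results of these data known. All 10 genes are named, with the 4 genes per other list of smallest median p over PFAS 7 to 13 and the 3 genes most like each of 4 members. Where a list symbol matched several gene IDs, each was counted. The row named EIF4EBP3 was taken as eif4ebp3l, since eif4ebp3 has a row of its own.

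Counts were fitted with edgeR 4.0.16 (R 4.3.3) in 1 quasi-likelihood model over 69 libraries, with TMM scaling, after filterByExpr (min.count 10, min.total.count 15). PFAS 5 replicate 1 was left out. CPM used the TMM library sizes, and log2 CPM a prior count of 2. Collection days, taken from the study's sampling sheet, were checked as a block. Deviations from group means correlated at 0.0356 over 204 same-day pairs and at -0.00811 over 894 other pairs (12811 genes), so the block was kept as an alternative. NB2 values were fitted with limma 3.58.1 in 6 groups, over genes above the lowest value in at least 4 columns. DESeq2 1.42.0, RLE scaling, other filters, 2-group fits, a block by NB2 column letter and each library left out were alternatives, the last with the dispersion trend of the full fit. Tables were made with Python 3.11.15, pandas 2.3.3 and numpy 2.4.6. The steps were tested on simulated data.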

Additional observations from a re-analysis of the deposited data

Results flagged for a closer look

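In groups of 4 to 10 samples, 204 groups were checked for a sample far from the others, and 13 were found. Chance alone gives about 1 in 20 groups. At 48 hpf the high samples were atf4a in PFAS 10 replicate 1 at 280 CPM, trib3 in PFAS 3 replicate 4 at 10.3 CPM and trib3 in PFAS 15 replicate 2 at 10.3 CPM. The low samples were ATF3 in PFAS 6 replicate 1 at 8.49 CPM, asns in PFAS 8 replicate 1 at 4.11 CPM and sesn2 in PFAS 8 replicate 3 at 4.33 CPM.

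In the NB2 series the high pools, on the log2 scale, were atf4a in NB2 pool A of 72 hpf at 10.38, atf4b in NB2 pool B of 48 hpf at 5.81, asns in control pool C of 72 hpf at 7.67 and trib3 in NB2 pool D of 72 hpf at 6.91. The low pools were DDIT3 in control pool C of 48 hpf at 7.43, sesn2 in control pool D of 96 hpf at 5.67 and ddit4 in NB2 pool C of 72 hpf at 4.30.

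The effect of NB2 at 96 hpf differed from that at 72 hpf and from that at 48 hpf by a limma interaction test. The differences of log2 effects (96 minus 72 hpf, then 96 minus 48 hpf) were 2.00 and 2.34 for chac1, 1.45 and 2.27 for ATF3, 1.87 and 1.73 for trib3, 1.33 and 1.39 for eif4ebp3l, and 1.31 and 1.30 for ddit4. They were 0.89 and 1.35 for DDIT3, 0.93 and 1.11 for sesn2, 0.81 and 0.68 for atf4a, and 0.55 and 0.58 for asns. For atf4b only the first, 1.04, passed the test.

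The PFAS 5 library that was left out held ATF3 at 13.7 and atf4a at 165 CPM, scaled by plain library totals, above the 6 Control Round 1 libraries, which ran from 4.76 to 9.16 and from 87.7 to 109. The 3 other PFAS 5 libraries ran from 7.86 to 23.7 for ATF3 and from 85.5 to 91.5 for atf4a. Other genes of the left-out library went the other way. Its eif4ebp3l at 7.66, sesn2 at 1.15 and, by little, atf4b at 52.59 CPM lay below all Control Round 1 libraries. Its DDIT3, asns, trib3 and ddit4 lay inside the control range.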

How the results depend on the processing

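No called value changed direction in the alternatives run. Uncalled values changed sign in 152 of 4220 gene-level results with 1 library left out, the largest from a log2 value of 0.4 in size. They did so in 5 results with collection day as a block, in 3 with the column letter as a block, in 1 with centring on the median gene and in 3 over all 70 libraries. One of the last was atf4a after PFAS 5, from -0.15 to 0.09. With DESeq2, 222 of 225 gene-level results kept their direction and side of the limit, with RLE scaling 224, and over all 70 libraries every result kept its side. ATF3 was also called, giving 1 gene, after PFAS 3 with the unfiltered table or a fit of only the 2 groups, and after PFAS 5 with these or with no filter beyond the authors' own. A 2-group fit gave 2 genes after PFAS 12 (trib3 added, adjusted p = 0.0395) and called asns after PFAS 11 (0.58, adjusted p = 0.0347), and DESeq2 gave 3 for PFAS 11 against PFAS 13.

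With collection day as a block, 222 of 225 results kept their side. The block ended the calls of trib3 for PFAS 7 against PFAS 13 (-0.51, adjusted p = 0.0789) and of eif4ebp3l for PFAS 10 against PFAS 12 (0.37, adjusted p = 0.0611), called ddit4 in the latter pair (0.97, adjusted p = 0.0429) and changed no other call. In the NB2 series, whose column letters the labels do not tie to replicate numbers, columns of the same age and letter were made a block after the data were seen. Deviations from group means correlated at -0.00698 on average over 13 same-letter pairs and at 0.00162 over 53 other pairs, so the letters were not taken as pairs. With that block 1 gene, DDIT3 (adjusted p = 0.0371), was called at 72 hpf, all 10 stayed called at 96 hpf (atf4b with adjusted p = 0.0160), and asns from 48 to 96 hpf was not (0.60, adjusted p = 0.0784).

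With each library left out in turn, the number of genes called ran from 0 to 1 for PFAS 5 and PFAS 6, from 1 to 2 for PFAS 8, from 7 to 8 for PFAS 10 and from 6 to 7 for PFAS 11. It ran from 3 to 7 for PFAS 10 against PFAS 11, from 3 to 6 for PFAS 10 against PFAS 13, from 1 to 2 for PFAS 11 against PFAS 13, from 0 to 2 for NB2 at 72 hpf and from 9 to 10 at 96 hpf. At 16 to 104 counts per library, ddit4 had the widest intervals, and depth limits what can be said of it. The NB2 values carry no counts, so their depth is unknown.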
